A study of Sus scrofa with 18 samples.

Results

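The smooth muscle contractile genes are 10 of the 29884 genes in the count table: ACTG2, ACTA2, DES, MYH11, CNN1, TAGLN, MYL9, MYLK, KCNMB1 and SMTN. They were taken from the table by symbol, and the set was selected on earlier results of these data, in which a pair of visceral libraries held high values of these genes. RNA-seq was run on subcutaneous fat (SAF) from the back, near the last ribs, and on visceral fat (VAF) from beside the kidney, in male Bama pigs, a Chinese miniature breed, sired by the same boar and fasted before slaughter. The ages were 1, 3 and 6 months, with 3 libraries for each depot and age (SAF1, SAF3, SAF6, VAF1, VAF3 and VAF6, the number giving the months), from 9 pigs in all. No pig was treated. The high values that selected the set are those of VAF3-1 and VAF3-2, so every comparison that rests on them is given as a description without a test.

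Vascular smooth muscle contracts when calcium-bound calmodulin activates myosin light chain kinase, which phosphorylates the regulatory light chain and lets smooth muscle myosin pull on actin filaments. In white fat these proteins belong mainly to the muscle coat of arterioles and veins, with smaller amounts in pericytes and in fibroblasts that have turned contractile. Hollow organs such as the gut, ureter and bladder have thick layers of visceral smooth muscle, which is rich in gamma-2 actin and desmin, whereas vascular smooth muscle is dominated by alpha-2 actin.

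Library totals ran from 16404239 to 22857354 counts. For 4 VAF libraries the title and age in the labels disagree with the library name in the description. The library names, which the count table also carries, were used, and log2FC values under the other reading, by title and age, are given with the comparisons they touch. Under either reading the VAF library at 3 months other than VAF3-1 and VAF3-2 is one of the low libraries described next. VAF6-3, which the study left out of its comparisons, was left out of the tests too unless stated, but its levels are given. The fits by title and age instead kept VAF6-3 and moved VAF6-1 to VAF3. They left out VAF3-3, which is titled as a VAF6 library. Adipocyte markers were present in every library: ADIPOQ, which encodes adiponectin, ran from 884 to 2920 CPM in the 16 libraries other than VAF3-1 and VAF3-2. SAF6-3, which was kept in the tests, stood apart from SAF6-1 and SAF6-2 in some markers. Its 6 fibroblast markers summed to 6096 CPM, against 30557 and 38768 CPM in the others. The adipocyte marker CIDEC was at 411 CPM in SAF6-3 and 464 CPM in VAF6-3, against 1750 and 1489 CPM in SAF6-1 and SAF6-2. ADIPOQ was at 1868 and 2162 CPM in SAF6-3 and VAF6-3. CPM are counts scaled to a library of 1000000 counts, on library sizes adjusted by TMM, a scaling factor that evens out differences in library composition.

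In these 16 libraries the 10 genes summed to between 463 and 1564 CPM, with a median of 857. In VAF3-1 they summed to 10239 CPM and in VAF3-2 to 8907 CPM. The remaining library of that group, VAF3-3, had 714 CPM, inside the range of the 16. As a share of all counts the set made up 1.14% of VAF3-1 (95% Wilson interval 1.13 to 1.14%) and 0.975% of VAF3-2 (0.970 to 0.979%), against 0.0420 to 0.165% in the 16 others. Such intervals cover counting error only. All 10 genes were higher in both VAF3-1 and VAF3-2 than in any of the 16 other libraries, as were 9.84% of the 14192 genes with a mean of at least 1 CPM. None was lower in both, as 9.62% of those genes were. Since these values selected the set, these counts are a description. In bulk tissue, a change in the number of muscle cells and a change in RNA per cell cannot be told apart.

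**Figure D1:**
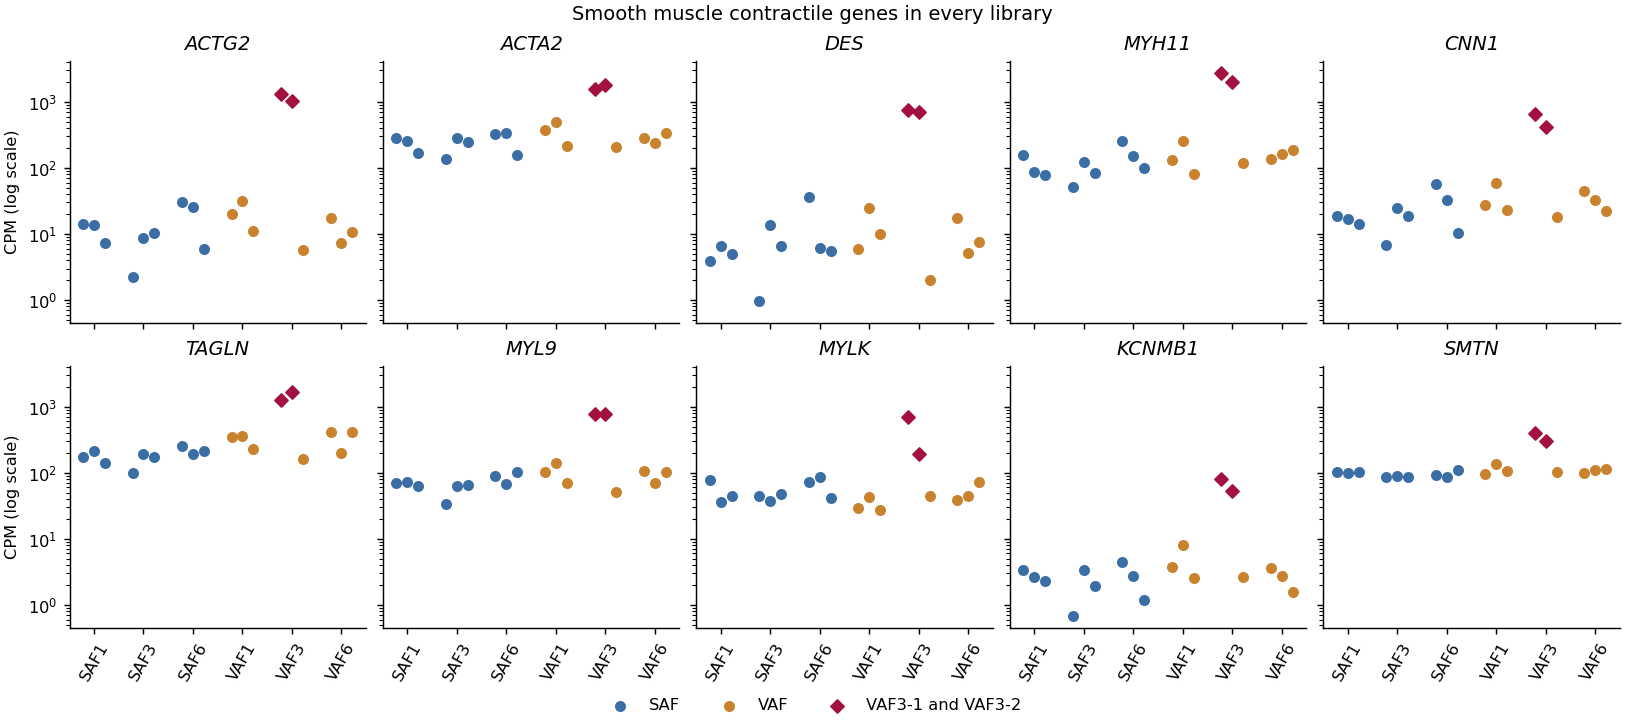
CPM of the 10 genes in each of the 18 libraries, on a log scale shared by the panels, with libraries 1 to 3 of a group placed from left to right. VAF3-1 and VAF3-2 (diamonds) lie above all other libraries in every panel, while VAF3-3 lies among them.

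The pair of actin genes differed in how far they stood apart. ACTG2 (chr3:69097366-69121542 in Sscrofa11.1, minus strand) encodes gamma-2 actin, the actin of enteric and other visceral smooth muscle. It was at 14.2, 13.7 and 7.35 CPM in SAF1, at 2.22, 8.82 and 10.2 CPM in SAF3 and at 30.4, 25.4 and 5.85 CPM in SAF6. In VAF it was at 20.05, 31.5 and 11.08 CPM at 1 month and at 17.4, 7.21 and 10.9 CPM at 6 months. In VAF3 it was at 1333, 1037 and 5.81 CPM. The first and second VAF3 libraries stood 122 and 94.6 times above the median of the 16 others (10.96 CPM), and VAF3-3 was the second lowest of the 16. No other group held a library outside 2.22 to 31.5 CPM, and the SAF and VAF ranges overlapped.

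ACTA2 (chr14:100868145-100886732, minus strand) encodes alpha-2 actin, the main actin of vascular smooth muscle and of contractile fibroblasts. It was at 282, 253 and 169 CPM in SAF1, at 138, 286 and 245 CPM in SAF3 and at 325, 344 and 158 CPM in SAF6. In VAF it was at 375, 501 and 213 CPM at 1 month, at 1544, 1830 and 205 CPM at 3 months and at 284, 239 and 334 CPM at 6 months. VAF3-1 and VAF3-2 were again apart, but only 5.77 and 6.84 times above the median of the 16 others (267 CPM).

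Per kilobase of exon, ACTA2 was the most abundant of the 10 genes in the 16 libraries (median 191 CPM per kb) and stayed first in VAF3-1 (1100.4 CPM per kb) and VAF3-2 (1304 CPM per kb). ACTG2 stood seventh in the 16 libraries (7.40 CPM per kb), second in VAF3-1 (899 CPM per kb) and behind ACTA2 and TAGLN in VAF3-2 (699.6 CPM per kb). Of the pair of actins, ACTG2 made up 1.503 to 8.11% per kb in the 16 libraries, 45.0% in VAF3-1 and 34.9% in VAF3-2. The lowest share was in SAF3-1 and the highest of the 16 in SAF6-1. No stretch of 50 bases in the ACTG2 transcript occurs in the transcripts of the other actin genes compared (ACTA2, ACTA1, ACTC1, ACTB and ACTG1). The values are therefore not shared between near-identical copies at that length.

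**Figure D2:**
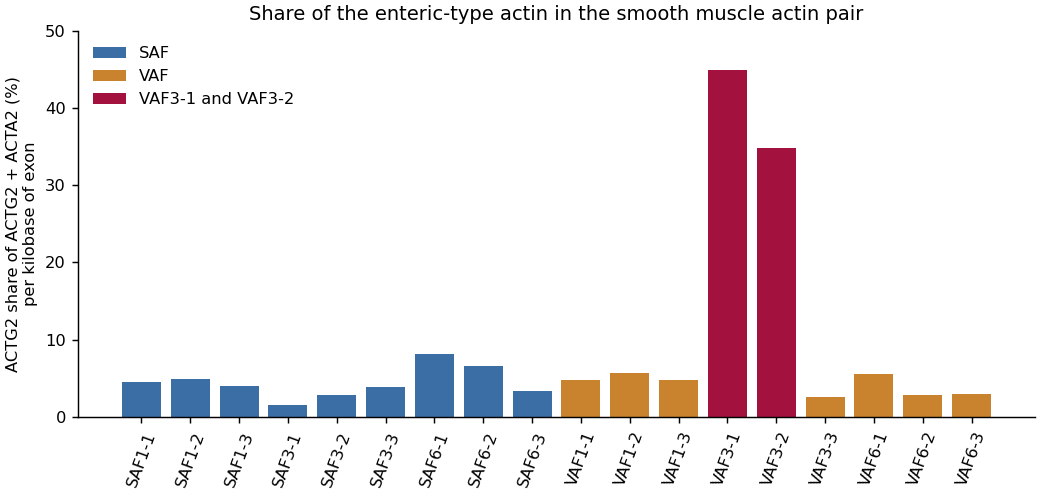
ACTG2 as a percentage of ACTG2 plus ACTA2, per kilobase of exon, in each of the 18 libraries. The bars reach 45.0% in VAF3-1 and 34.9% in VAF3-2 and at most 8.11% elsewhere.

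The motor proteins followed. MYH11 (chr3:7002667-7143093, plus strand) encodes the smooth muscle myosin heavy chain and, of the 10 genes, took the most counts in VAF3-1 and in VAF3-2. It was at 159, 86.6 and 77.1 CPM in SAF1, at 52.3, 121 and 83.9 CPM in SAF3 and at 255, 151 and 98.7 CPM in SAF6. In VAF it was at 134, 258 and 80.2 CPM at 1 month, at 2735, 1965 and 120.1 CPM at 3 months and at 138, 165 and 184 CPM at 6 months. VAF3-1 and VAF3-2 were 21.4 and 15.4 times above the median of the 16 others, between the factors of ACTG2 and ACTA2. Per kb, the ratio of MYH11 to ACTA2 was 0.0715 to 0.164 in the 16 libraries, 0.371 in VAF3-1 and 0.225 in VAF3-2.

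MYL9 (chr17:39788165-39795240, plus strand) encodes the regulatory light chain that the kinase phosphorylates. It ran from 33.7 CPM (SAF3-1) to 141 CPM (VAF1-2) in the 16 libraries, and VAF3-1 and VAF3-2 had 763 and 762 CPM, the closest match between these libraries among the 10 genes. MYLK (chr13:136509878-136809674, plus strand) encodes the kinase itself. It was at 76.4, 35.8 and 45.1 CPM in SAF1, at 44.9, 37.7 and 47.1 CPM in SAF3 and at 73.5, 85.5 and 41.4 CPM in SAF6. In VAF it was at 29.4, 42.4 and 27.4 CPM at 1 month, at 696, 194 and 43.7 CPM at 3 months and at 38.9, 44.9 and 72.7 CPM at 6 months. MYLK was the gene in which VAF3-1 and VAF3-2 differed most, by a factor of 3.59. The other 9 genes differed between these libraries by factors of 0.770 (TAGLN) to 1.58 (CNN1), with single libraries and so without a replicate check. The annotation gives MYLK 12 transcripts from 10 starts, and gene counts do not separate them.

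The proteins that bind or brace the actin filament came next. DES (chr15:121428539-121435426, plus strand) encodes desmin, the muscle intermediate filament. It was at 3.90, 6.52 and 4.90 CPM in SAF1, at 0.969, 13.7 and 6.64 CPM in SAF3 and at 35.7, 6.13 and 5.47 CPM in SAF6. In VAF it was at 5.96, 25.1 and 9.92 CPM at 1 month, at 766, 703 and 2.04 CPM at 3 months and at 17.2, 5.19 and 7.55 CPM at 6 months. VAF3-1 and VAF3-2 were 121 and 111 times above the median of the 16 others, close to the factors of ACTG2. DES also varied most among the 16 libraries, 36.9-fold from the lowest (SAF3-1) to the highest (SAF6-1).

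TAGLN (chr9:44561756-44567385, plus strand) encodes transgelin, an actin-bundling protein. It was at 174, 216 and 141 CPM in SAF1, at 97.9, 193 and 175 CPM in SAF3 and at 253, 190 and 217 CPM in SAF6. In VAF it was at 350, 361 and 231 CPM at 1 month, at 1263, 1640 and 163 CPM at 3 months and at 417, 197 and 416 CPM at 6 months. It was the second most abundant of the 10 genes per kb in the 16 libraries (140 CPM per kb). Its factors in VAF3-1 and VAF3-2, 6.11 and 7.93, were near those of ACTA2. CNN1 (chr2:70183370-70190756, plus strand), which encodes calponin, an inhibitor of the myosin ATPase on actin, ran from 6.90 to 59.8 CPM in the 16 libraries, and VAF3-1 and VAF3-2 had 662 and 418 CPM. SMTN (chr14:47879317-47902700, plus strand), which encodes the actin-associated protein smoothelin, ran from 85.3 to 135 CPM and was at 397 and 305 CPM. SMTN had the narrowest range of the 10 genes among the 16 libraries (1.58-fold) and the smallest factors in VAF3-1 (3.94) and VAF3-2 (3.03).

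KCNMB1 (chr16:53616532-53631197, plus strand) encodes the beta-1 subunit of the large-conductance calcium-activated potassium channel, which limits contraction by hyperpolarizing the muscle cell. It was the least abundant per kb, with 0.684 to 8.09 CPM in the 16 libraries, while VAF3-1 and VAF3-2 had 80.4 and 53.3 CPM. MYH11, MYL9, MYLK and KCNMB1 overlap a gene on the opposite strand in the annotation (LOC110259859, LOC110257438, LOC102157484 and KCNIP1). Whether counting used the strand is not given in the sources used here, so their counts may hold reads of these partners.

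**Figure D3:**
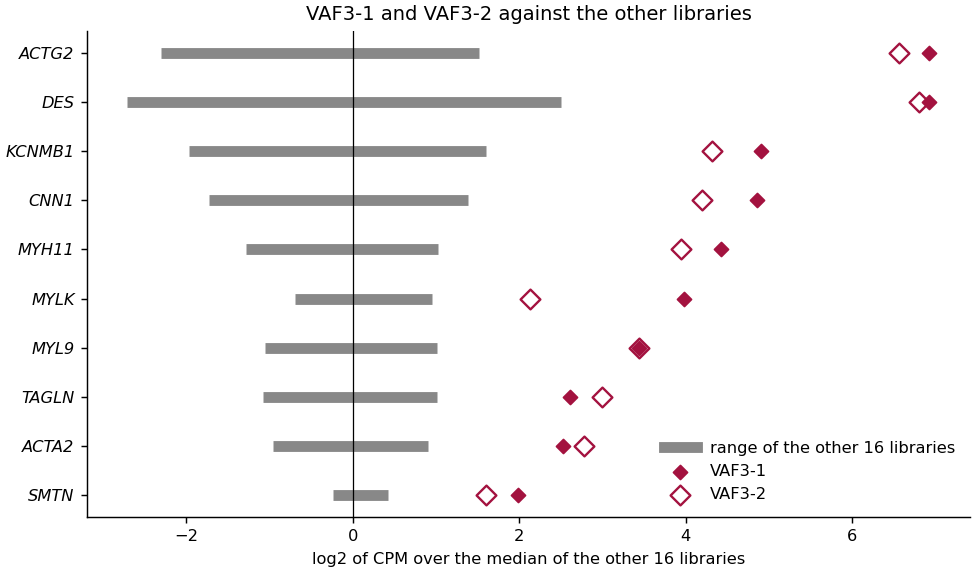
CPM of VAF3-1 (filled) and VAF3-2 (open) over the median of the other 16 libraries, on a log2 axis, with the range of those 16 as a grey bar. ACTG2 and DES lie furthest out (6.56 to 6.93). Both symbols of ACTA2, TAGLN and SMTN lie at 1.60 to 2.99, as does the open symbol of MYLK (2.13). The symbols of MYL9 coincide.

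The windows in front of the annotated gene starts were read from the Sscrofa11.1 genome (RefSeq), 250 bases each, on the gene's strand. They were searched for the CArG box, the site of serum response factor, in which CC and GG flank a run of A and T. Its reverse complement has the same form, so 1 search covers both strands. MYL9 held 1 CArG box, which ends 61 bases before the start. Of the windows of 19528 protein-coding genes, 1.31% held at least 1. With at most 1 letter off, ACTG2 (3 sites) and ACTA2 (2 sites) had matches as well, against 17.7% of all windows with such a match. Those of DES, MYH11, CNN1, MYLK, KCNMB1 and SMTN had no match of either kind, which says only that these letters are not in these windows. The windows of these 3 genes are shown because they hold the matches of both actins and of the regulatory light chain, in lower case with the matches in capitals. Those of ACTG2 and ACTA2 are 1 letter off, and that of MYL9 is a full match.
ACTG2, chr3:69121543-69121792, minus strand: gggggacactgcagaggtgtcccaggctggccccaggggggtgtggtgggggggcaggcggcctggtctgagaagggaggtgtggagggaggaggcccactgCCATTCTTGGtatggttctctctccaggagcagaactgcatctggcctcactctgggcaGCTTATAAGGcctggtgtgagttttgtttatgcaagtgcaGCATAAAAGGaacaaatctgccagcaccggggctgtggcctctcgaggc
ACTA2, chr14:100886733-100886982, minus strand: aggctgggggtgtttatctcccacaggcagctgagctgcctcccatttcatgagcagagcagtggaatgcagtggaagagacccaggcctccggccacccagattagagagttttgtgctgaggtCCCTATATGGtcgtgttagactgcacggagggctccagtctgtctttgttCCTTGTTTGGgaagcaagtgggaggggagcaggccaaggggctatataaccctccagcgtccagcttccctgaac
MYL9, chr17:39787915-39788164, plus strand: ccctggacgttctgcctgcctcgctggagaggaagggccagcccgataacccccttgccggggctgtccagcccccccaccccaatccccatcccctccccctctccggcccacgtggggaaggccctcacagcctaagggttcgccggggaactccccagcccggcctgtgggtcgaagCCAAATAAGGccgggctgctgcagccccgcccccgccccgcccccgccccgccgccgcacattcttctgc

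The 16 libraries give the level of these genes in both depots apart from the values that selected the set, but they were not uniform. Of the marker lists given below, kidney markers summed highest in VAF3-3, at 32.2 CPM against a median of 2.81 CPM. Urothelial markers summed highest in VAF6-1, at 31.2 CPM against a median of 5.73 CPM. VAF6-3, which the study left out, is among the 16 too. SAF3-1 was the lowest of the 16 for 9 of the 10 genes (for MYLK it was VAF1-3), and VAF1-2 was the highest for 7. Across the 16 libraries the log2(CPM + 1) of a gene correlated with the mean of the other 9 at Pearson's r of 0.74 to 0.91 for 8 genes, but at 0.34 for SMTN and 0.14 for MYLK. Within the 9 SAF libraries r was 0.49 for MYLK and -0.05 for SMTN, and within the 7 VAF libraries it was 0.03 and 0.55. These correlations are descriptions over libraries, some of which share a pig. The order of the groups SAF1, SAF3, SAF6, VAF1 and VAF6 by their median differed from gene to gene, and in 40 of 40 pairs of neighbours in that order the ranges of the libraries overlapped. Neighbours in an order by median lie close by construction, so this overlap is a description and does not show that the groups are alike.

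SAF was compared with VAF at 1 and at 6 months, the ages without VAF3-1 and VAF3-2, with edgeR's quasi-likelihood test and Benjamini-Hochberg adjustment over all genes tested. DEGs were genes with an adjusted p under 0.05 and a log2FC (SAF/VAF) beyond 0.585, a 1.5-fold change, in either direction. At 1 month 9 of the 10 members had a negative log2FC, that is, were higher in VAF, and their median was -0.71 against -0.002 over all genes. The largest was that of DES, at -1.41 (SE 0.52), followed by CNN1 at -1.14 (SE 0.35) and TAGLN at -0.82 (SE 0.23). This order rested on VAF1-2, without which DES was at -0.63, CNN1 at -0.61 and TAGLN at -0.72. MYLK went the other way, at 0.67 (SE 0.30). None of the 10 was a DEG by edgeR (lowest adjusted p = 0.42), and neither was any of the 15064 genes tested (0%). At an unadjusted p under 0.05 there were 1702 genes, 4 of them members. DESeq2 called 187 of 15353 genes and 0 members.

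At 6 months the members divided evenly, with 5 positive and 5 negative log2FC and a median of 0.02 against 0.01 over all genes. ACTG2 was at 0.74 (SE 0.71), MYLK at 0.68 (SE 0.34) and TAGLN at -0.48 (SE 0.36, but 0.15 without VAF6-1). ACTG2 moved to 1.51 without VAF6-1 and to 0.25 without VAF6-2. It was at 0.36 without SAF6-1, 0.55 without SAF6-2 and 1.19 without SAF6-3. By title and age labels ACTG2 was at 1.22, MYLK at 0.23 and TAGLN at -0.44. edgeR called 0 members (lowest adjusted p = 0.70) and 0 of 14962 genes (0%), with 1016 genes and 0 members at an unadjusted p under 0.05. DESeq2 called 184 of 15903 genes and 0 members. At this age libraries with the same number deviated together from their group means, though the deviations within a group are not independent of each other. With the replicate number as a block, which leaves a pair each from the first and second numbers, edgeR called ACTG2 (log2FC 1.29, SE 0.23, adjusted p = 0.0057) and MYLK (log2FC 0.93, SE 0.15, adjusted p = 0.0023), both higher in SAF, among 766 genes (5.12%). In the pair of SAF6-3 and VAF6-3, which that fit leaves out, both genes were higher in VAF: ACTG2 was at 5.85 and 10.9 CPM and MYLK at 41.4 and 72.7 CPM. With all 3 pairs in the blocked fit, edgeR gave adjusted p = 0.65 for ACTG2 and 0.72 for MYLK, called 0 members and called 97 genes (0.661%).

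Over both ages together (11 libraries, with age as a term), 9 members had a negative log2FC, with a median of -0.34 against -0.001 over all genes. TAGLN had the lowest adjusted p (log2FC -0.69, SE 0.22, edgeR adjusted p = 0.13). In the single libraries it was at 141 to 253 CPM in the 6 SAF libraries, with a median of 203, and at 197 to 417 CPM in the 5 VAF libraries, with a median of 350, so the ranges overlapped. CNN1 was at -0.75 (SE 0.40), DES at -0.61 (SE 0.65) and MYLK at 0.66 (SE 0.23, edgeR adjusted p = 0.16). DES moved to -1.23 without SAF6-1 and to -0.10 without VAF1-2. By title and age labels DES was at -0.30, CNN1 at -0.54, TAGLN at -0.68 and MYLK at 0.45. edgeR called 0 of the 10 members and 129 of 15514 genes (0.832%), with 3098 genes and 2 members at an unadjusted p under 0.05. DESeq2 called 721 genes (4.47%) and 1 member, TAGLN, at log2FC -0.68 (SE 0.23, adjusted p = 0.045).

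**Figure D4:**
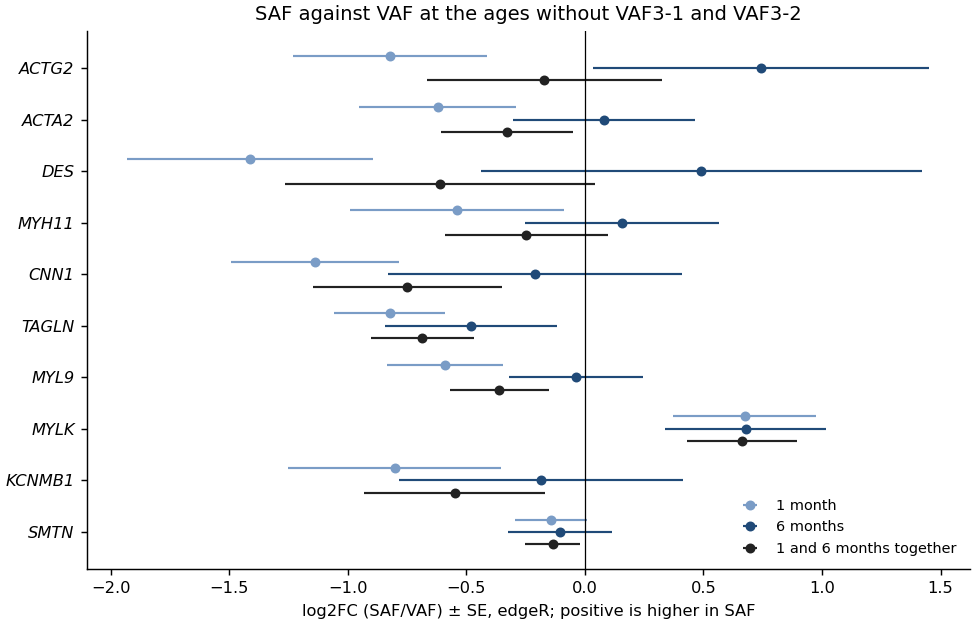
log2FC (SAF/VAF) with its SE for the 10 genes at 1 month, at 6 months and over both ages together, by edgeR. CNN1, TAGLN, MYL9, KCNMB1 and SMTN lie below 0 and MYLK above 0 in all 3 fits. ACTG2, ACTA2, DES and MYH11 lie below 0 at 1 month and above it at 6 months.

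The depot difference at 1 month minus that at 6 months was negative for all 10 genes, with a median of -0.66 against -0.02 over all genes. It was -1.90 (SE 1.17) for DES and -1.56 (SE 0.88) for ACTG2, and edgeR called neither these nor any other of the 15937 genes (0%, 322 genes and 0 members at an unadjusted p under 0.05). DESeq2 called 2 of 22745 genes and 0 members. Leaving out 1 library each, the value of DES ran from -3.03 (without VAF6-1) to -0.47 (without SAF6-1), with -1.12 without VAF1-2 and -1.28 without VAF6-2, and that of ACTG2 from -2.35 (without VAF6-1) to -1.05 (without VAF6-2). By title and age labels they were -2.69 and -1.98. A change of the depot difference with age was thus not detectable with these libraries.

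Within SAF, all 10 members had a negative log2FC for 3 against 6 months, that is, were higher at 6 months, with a median of -0.64 against -0.02 over all genes. ACTG2 was at -1.52 (SE 0.69), DES at -1.14 (SE 0.96, but 0.29 without SAF6-1 and -2.04 without SAF3-2) and MYH11 at -0.96 (SE 0.41). edgeR called 0 members (lowest adjusted p = 0.52) and 0 of 14689 genes (0%), with 1404 genes and 2 members at an unadjusted p under 0.05. DESeq2 called 332 of 17021 genes and 0 members. SAF3-1, the library that was lowest for 9 members, is in this contrast, and without it the log2FC of ACTG2 was -1.10. For 1 against 3 months in SAF, 8 members were positive and ACTG2 was at 0.74 (SE 0.52), and edgeR called 0 members and 15 of 14892 genes (0.101%). For 1 against 6 months in VAF, 8 members were positive and ACTG2 was at 0.77 (SE 0.53, but 1.53 without VAF6-1, 0.27 without VAF6-2 and 1.199 by title and age labels), and edgeR called 0 members and 142 of 15175 genes (0.936%). At an unadjusted p under 0.05 there were 2027 genes in this SAF comparison and 2719 in this VAF comparison, 0 of them members. DESeq2 called 547 of 16154 and 1192 of 16507 genes in the same order, 0 of them members.

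At 3 months all 10 members had a negative log2FC, from -1.65 (SMTN) to -6.83 (ACTG2), with a median of -3.78 against -0.003 over all genes, and 6 of 14960 genes were DEGs by edgeR (0.0401%). This contrast selected the set, so nothing is read from it. The fit averages 3 libraries of which only the first and second were high.

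The other genes of the contractile programme were taken from lists of filament genes, myosin regulation genes, calcium handling and receptor genes, and transcription factor genes. Over all genes with a mean of at least 1 CPM, 9.84% were above the 16 other libraries in both VAF3-1 and VAF3-2, and 9.62% were below. Of 15 filament genes, 10 were higher in both VAF3-1 and VAF3-2 than in the 16 other libraries and 2 were lower, with a median log2 ratio of 1.46 and 1.76. TPM2, which encodes beta-tropomyosin, was at 968 and 881 CPM against 62.2 to 170 CPM in the 16, and LMOD1, which encodes the actin nucleator leiomodin, at 128 and 146 CPM against 17.6 to 90.3 CPM. CALD1 (caldesmon), at 360 and 202 CPM against 281 to 957 CPM, and SYNPO2, at 83.9 and 52.0 CPM against 15.9 to 71.9 CPM, were not above in both. TNS1 was among the lower ones. Of 9 myosin regulation genes 3 were above and 2 below: PPP1R12B (167 and 135 CPM), PPP1R14A (46.4 and 44.2 CPM) and the essential light chain gene MYL6 (1863 and 1833 CPM) were above their maxima of 67.4, 19.1 and 1040.1 CPM, while HSPB6 was not above in both and ROCK2 and RHOA were below.

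Fewer of the receptor and regulator genes stood apart. A mean of at least 1 CPM was reached by 10 of the 12 calcium handling and receptor genes and 4 of the 7 transcription factor genes. Over all genes with such a mean, 9.84% were above in both libraries and 9.62% below. Of 12 calcium handling and receptor genes, P2RX1, a purine-gated channel of smooth muscle, and PLN were above in both libraries and AGTR1 was below. KCNMA1, which encodes the pore of the channel that KCNMB1 modifies, was at 7.33 and 6.35 CPM, inside the 0.255 to 8.20 CPM of the 16, and so were CACNA1C and CHRM2, while CHRM3 was above in VAF3-2 only. Of 7 transcription factor genes only SRF, which encodes serum response factor, was above, at 50.1 and 44.4 CPM against at most 43.1 CPM. MYOCD, which encodes its smooth muscle coactivator myocardin, was at 0.890 and 1.35 CPM against 0.118 to 1.65 CPM, MRTFA was above in VAF3-2 only and MRTFB was inside the range. In the comparisons above apart from 3 months, edgeR without a block called 1 gene of these 4 lists, HAND2, over both ages together (log2FC -3.24, SE 0.66, adjusted p = 0.047, higher in VAF), at no more than 1.95 CPM. With the replicate block at 6 months it called LMOD1 (log2FC -1.18, SE 0.21, adjusted p = 0.0044, higher in VAF), but not with VAF6-3 included. Of the 6 other actin and myosin genes, ACTA1, ACTC1 and ACTB were inside the range of the 16 libraries in VAF3-1 and VAF3-2, ACTG1 and MYH10 were outside it in only 1 of them, and MYH9 was just below (455 and 458 CPM against at least 462 CPM).

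Markers of other cell types moved with the high libraries. The urothelium lines the ureter, renal pelvis and bladder. Its 10 markers summed to 2923 CPM in VAF3-1 and 1262 CPM in VAF3-2, against 2.04 to 31.2 CPM in the 16 others, with 9 of 10 above in both. UPK1A was at 341 and 108 CPM, UPK1B at 276 and 35.4 CPM, UPK2 at 444 and 177 CPM and UPK3A at 345 and 210 CPM, where the 16 others reached 0.294, 3.77, 0.294 and 1.12 CPM, and only KRT5 stayed inside the range. KRT7 (400.2 and 252 CPM) was also a DEG over 1 and 6 months together, at lower levels of at most 6.01 CPM (edgeR log2FC -3.61, SE 0.71, adjusted p = 0.044, higher in VAF). The 8 adipocyte markers summed to 5745 and 4999 CPM against 11259 to 20586 CPM, with 5 below in both, among them ADIPOQ (605 and 417 CPM), PLIN1 and FABP4. The 9 pericyte and vascular mural markers (RGS5, NOTCH3, PDGFRB and ABCC9 the first named) summed to 397 and 493 CPM against 532 to 752 CPM, with 0 above and 1 below in both. Over all genes with a mean of at least 1 CPM, 9.84% were above in both and 9.62% below. The gene below was PDGFRB, at 108 and 173 CPM against 176 to 256 CPM. RGS5 (22.8 and 13.9 CPM against 17.4 to 141 CPM) and ABCC9 were below in VAF3-2 only, and NOTCH3 in VAF3-1 only. ANGPT1 was above in VAF3-2 only, at 9.10 CPM against at most 8.41 CPM. The part of these cell types in the levels of the contractile genes was not tested.

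**Figure D5:**
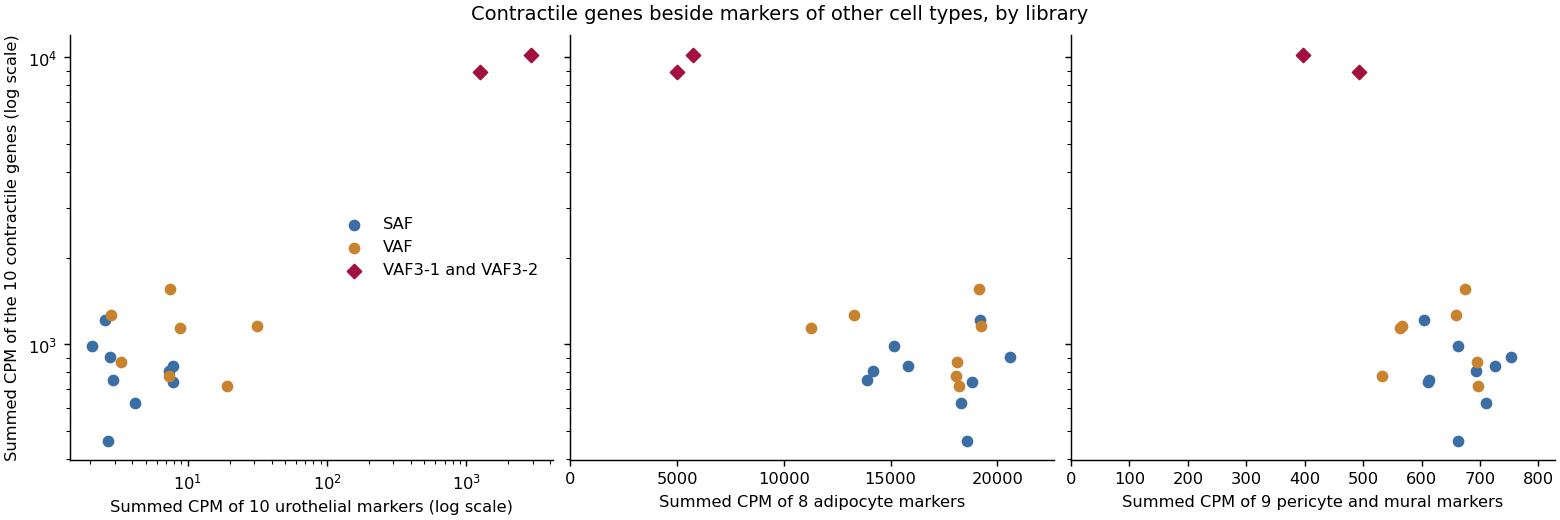
Summed CPM of the 10 contractile genes (log axis) against the summed CPM of 10 urothelial markers (log axis), 8 adipocyte markers and 9 pericyte and vascular mural markers, 1 point for each of the 18 libraries. VAF3-1 and VAF3-2 lie highest for the contractile and urothelial genes and lowest for the adipocyte and mural genes.

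The remaining lists gave little that moved with both libraries, against shares of 9.84% above and 9.62% below over all genes with a mean of at least 1 CPM. That mean was reached by 2 of 10 kidney, 3 of 10 skeletal muscle and 3 of 5 mesothelial markers. Of the markers of interstitial cells of Cajal and enteric neurons, 4 of 6 reached it. Of 10 endothelial markers 0 were above and 3 below in both (CDH5 and KDR among them, while PECAM1 and VWF were below in VAF3-1 only). Of 10 kidney markers, UMOD, SLC12A1, LRP2, CUBN and the other 6 were above in 0 cases, at no more than 1.55 CPM in VAF3-1 and VAF3-2. Their sum was highest in VAF3-3, at 32.2 CPM against a median of 2.81 CPM over the 16 libraries. Of 10 skeletal muscle markers only CKM was above (61.4 and 32.3 CPM against at most 19.3 CPM), and MYH1, MYH2, MYH4 and MYH7 were at most 0.262 CPM. Of 5 mesothelial markers KRT8 (418 and 264 CPM against at most 26.6 CPM) and KRT18 (111 and 55.4 CPM against at most 9.02 CPM) were above. UPK3B was above too, but at only 0.838 and 0.450 CPM against at most 0.371 CPM. LRRN4 and WT1 were inside the range. KRT8 and KRT18 are keratins of the urothelium too. Of 6 markers of interstitial cells of Cajal and enteric neurons 0 were above in both, with ELAVL4 at 0 in VAF3-1 and VAF3-2, KIT, ETV1 and RET inside the range and ANO1 above in VAF3-1 only. Of 6 fibroblast markers only FBLN1 was above (1133 and 1290.1 CPM against at most 487 CPM), with COL1A1, PDGFRA, DCN and LUM inside the range.

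The genes most like the set were ranked by the Pearson correlation of their log2(CPM + 1) with the mean of the 10 members, among genes with a mean of at least 5 CPM. Over the 16 libraries TPM2 came first (r = 0.87) and RASL12, a Ras-like GTPase gene, second (r = 0.86), followed by C6H1orf216, DUSP10, LOC102161418, CACNA1H, HOXA9, NBL1, ICAM1 and BCO1 at 0.69 to 0.77. Over all 18 libraries TPM2 (0.985) and RASL12 (0.965) led again, followed by FHL2, SYNM, DSTN, TMEM51, FOXP4, P2RX1, SPINT2 and PYGM at 0.93 to 0.95. The second ranking is carried by VAF3-1 and VAF3-2, and it includes SPINT2, an epithelial protease inhibitor gene. TPM2 and RASL12 were thus the genes shared by both rankings, and C6H1orf216, DUSP10, ICAM1 and BCO1, high in the first, were below their 16-library median in VAF3-1 and VAF3-2.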

How the data were processed

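Total RNA of 18 libraries (9 SAF and 9 VAF) was sequenced by the authors. Per the submitters' processing notes, reads were aligned to Sscrofa11.1 with HISAT2 2.0.4, and the study's methods name fastp for trimming and HTSeq-count for counting. The deposited values are the authors' raw counts per gene, not normalized, and library totals ran from 16404239 to 22857354, which limits precision for genes of a few CPM. Groups follow the library names in the labels, and VAF6-3 was left out of tests.

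Counts were fitted with edgeR 4.0.16 in R 4.3.3 (TMM, filterByExpr, glmQLFit, glmQLFTest) across all genes that passed the filter, with Benjamini-Hochberg adjustment. All 10 members passed in each of the 8 comparisons. CPM used TMM sizes over the 18 libraries. Alternatives were DESeq2 1.42.0, its size factors, no filter, each library left out, a replicate block, all groups in 1 fit, VAF6-3 included, and the reading of the labels by title and age. The scripts were tested on simulated data. Pairs of libraries within a group differed beyond counting noise, so none was counted as a duplicate. Same-numbered libraries of the depots were checked for shared deviations from their group means. The correlations across genes were 0.54 to 0.72 at 6 months, -0.24 to 0.35 at 1 month and -0.03 to 0.53 at 3 months. Only at 6 months did all 3 pairs deviate together. The deviations within a group are not independent, so strong deviations of SAF6-3 and VAF6-3 alone could give positive correlations in the other pairs. Both stood far from the rest of their groups. The chi-square per degree of freedom was 315 and 321 for SAF6-3 and 404 and 453 for VAF6-3. It was 37.2 and 75.6 between the first and second libraries of SAF6 and VAF6. Pairing by number at 1 and 3 months was neither shown nor excluded. The pairing at 6 months comes from the data and not from the labels, and it was not checked without SAF6-3 and VAF6-3. The p-values of the age comparisons within a depot cover the spread between these pigs. Those of SAF against VAF without a block take all libraries as independent, although 9 pigs gave the libraries of both depots.

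The members and the lists were chosen with earlier results of these data known. The genes named are the 10 members, the first 4 genes of each list, further list genes that were called or stood apart from the 16 libraries (these last picked with their values in view), and the 10 genes most like the set. Exon length is the union of annotated exons in NCBI's annotation of Sscrofa11.1. Protein sequences were not used here. The promoter window of 1 member and the values of some list genes are not reported here.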

Additional observations from a re-analysis of the deposited data

How the results depend on the processing

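In the comparisons apart from 3 months, the count of members called stayed at 0 under every alternative, with 2 exceptions: 1 member with DESeq2 over both ages together, and 2 members with the replicate block at 6 months. With the block and VAF6-3 included, an alternative chosen after seeing the data, the 6-month count was 0 again. The block changed no other count of members. Of 236 fitted values of the named log2FC under alternatives, 231 kept direction and call, 3 became calls (ACTG2 and MYLK at 6 months with the block, TAGLN with DESeq2 over both ages) and 2 reversed. Leaving out 1 library each, TAGLN at 6 months ran from -0.92 to 0.15 and DES in SAF at 3 against 6 months from -2.04 to 0.29. The median log2 ratios of VAF3-1 and VAF3-2 to the other libraries moved by less than 1 SD with raw totals or with the SAF or VAF libraries as reference.

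The count of all genes called was less stable, and the cause was not tested. With DESeq2 it was 187 for SAF against VAF at 1 month, 184 at 6 months, 721 over both ages, 956 at 3 months, 2 for the difference between ages, 547 for SAF at 1 against 3 months, 332 for SAF at 3 against 6 months and 1192 for VAF at 1 against 6 months. Without a filter on low counts it was 1 at 1 month, 3 at 6 months, 125 and 14 for the SAF ages in the same order and 373 for VAF. With all groups in 1 fit it was 2 at 6 months, 455 at 3 months, 4 and 21 for the SAF ages and 15 for VAF. With VAF6-3 included it was 1 at 6 months, 83 over both ages and 0 for VAF at 1 against 6 months, and by title and age labels 27 over both ages, 30 at 3 months and 0 for VAF. With the replicate block it was 766 at 6 months, and 97 with VAF6-3 included. Leaving out 1 library each, it ran from 0 to 2 at 1 month, 0 to 1 at 6 months, 0 to 171 over both ages, 0 to 38 and 0 to 15 for the SAF ages, 1 to 132 for VAF and 0 to 2740 at 3 months, the last value without VAF3-3. At 3 months it was 0 without any 1 of the other libraries. Over both ages it was 0 without SAF6-1, VAF1-3 or VAF6-1, 4 without SAF1-3, 5 without VAF6-2, 9 without SAF6-2, 30 without SAF1-1 and 52 without VAF1-2. For SAF at 1 against 3 months it was 38 without SAF3-1, 30 without SAF1-2, 7 without SAF1-1, 3 without SAF3-2, 1 without SAF3-3 and 0 without SAF1-3, and for VAF ages 1 or 2 without VAF1-2, VAF1-3, VAF6-1 or VAF6-2. Of the 10 genes most like the set over 16 libraries, 10 remained with a pseudocount of 0.1, 8 with raw totals and 4 with Spearman's rho, and over 18 libraries 10, 9 and 2. Genes of a few CPM, such as KCNMB1 in most libraries, rest on few counts.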
